A study of Mus musculus with 2 samples.

Results

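The 47 genes described here encode the proteins that carry a signal from Toll-like receptors, the IL-1 receptor and CD40 to the transcription factor NF-κB, together with the proteins that switch it off. They are the adaptors, kinases, ubiquitin ligases, NF-κB subunits and inhibitors named in a fixed list, and each name matched a single Ensembl gene, so they make up 47 of the 55487 gene rows measured. The series holds 2 RNA sequencing libraries of mouse Langerhans cells, which sample antigen in the epidermis, from animals that lack the serotonin 2A receptor (genotype HTR2A-/-). Digested ears were sorted for cells carrying both CD207 and MHC class II, which were then kept for 24 hours with imiquimod, an agonist of Toll-like receptor 7, and an agent labelled a-CD40L. Both libraries carry the same genotype and treatment and form 1 group, and wild-type or untreated cells were not analysed here. The series title calls the cells monocyte-derived, whereas the protocols describe a sort from ears. All values describe stimulated knockout cells, none shows induction or an effect of the receptor, and the only comparison is between the libraries.

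Toll-like receptors and the IL-1 receptor recruit MyD88, which assembles IRAK kinases and the ubiquitin ligase TRAF6. Ubiquitin chains then activate the kinase TAK1 and the IκB kinase (IKK) complex, which marks IκB proteins for destruction and frees NF-κB dimers of RelA or c-Rel with p50. CD40 uses other TRAF proteins and the kinase NIK to release a second kind of dimer, RelB with p52. NF-κB then induces its own inhibitors, among them IκBα and A20, so that the signal ends itself. In dendritic cells, the family to which Langerhans cells are functionally close, this pathway drives maturation and the production of cytokines.

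Library 1 held 69925160 counts and library 2 held 42264685, and the labels do not say whether they came from separate mice or cultures. Levels are given in counts relative to the library total, scaled as CPM, and, where genes are compared with each other, in CPM per kb of annotated exon. The targeted gene Htr2a was at 1.10 CPM in library 1 and 2.77 in library 2. It lay at percentiles 44.5 and 33.4 of the 1135 olfactory receptor genes, which the cells are not known to use and which served as background. The sort marker Cd207 (langerin) was at 1125 CPM in library 1 and 1052 in library 2. The libraries differed in markers of keratinocytes and of mature dendritic cells. The 14 keratinocyte markers summed to 4885 CPM in library 1 and 16923 in library 2, and the 12 markers of mature dendritic cells to 3321 and 977 CPM. In such bulk samples, fewer cells of a type and less RNA per cell cannot be told apart.

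All 47 pathway genes were expressed above background in both libraries. A gene was counted as above background where its CPM per kb exceeded the 95th percentile of olfactory receptor genes, which was 0.761 in library 1 and 1.58 in library 2. By the same rule, 27.2% of all genes with a known exon length and 47.3% of protein-coding genes were above background. The lowest members were Traf5, at 2.20 and 1.77 CPM per kb, Tirap, at 1.66 and 2.40, and Tab1, at 3.19 and 2.11. Traf5 stood at 1.12 times the limit of library 2, so its transcripts were barely separated from background there. Counting error was small even for the rarest members. Tab1 had the fewest counts, 300 in library 2, which gave 7.10 CPM with an exact 95% Poisson interval of 6.32 to 7.95. That interval leaves out the spread between libraries, and Tab1 was at 10.7 CPM in library 1.

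The 2 members with the most counts in each library were feedback inhibitors. Zfp36, which encodes tristetraprolin, a protein that speeds the decay of cytokine mRNAs, and Tnfaip3, which encodes the ubiquitin-editing enzyme A20, together held 33.7% of all member counts in library 1 and 33.4% in library 2. With Rel, Nfkbia and Nfkbiz they made up 52.4% and 54.6%. The members as a whole took 0.962% of all counts in library 1 and 0.715% in library 2. Ranked by CPM per kb among 21974 protein-coding genes, Nfkbia was number 58 in library 1 and 51 in library 2, Zfp36 number 34 and 109, and Tnfaip3 number 111 and 107. Of the 47 members, 14 in library 1 and 13 in library 2 were among the 1000 highest.

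**Figure D1:**
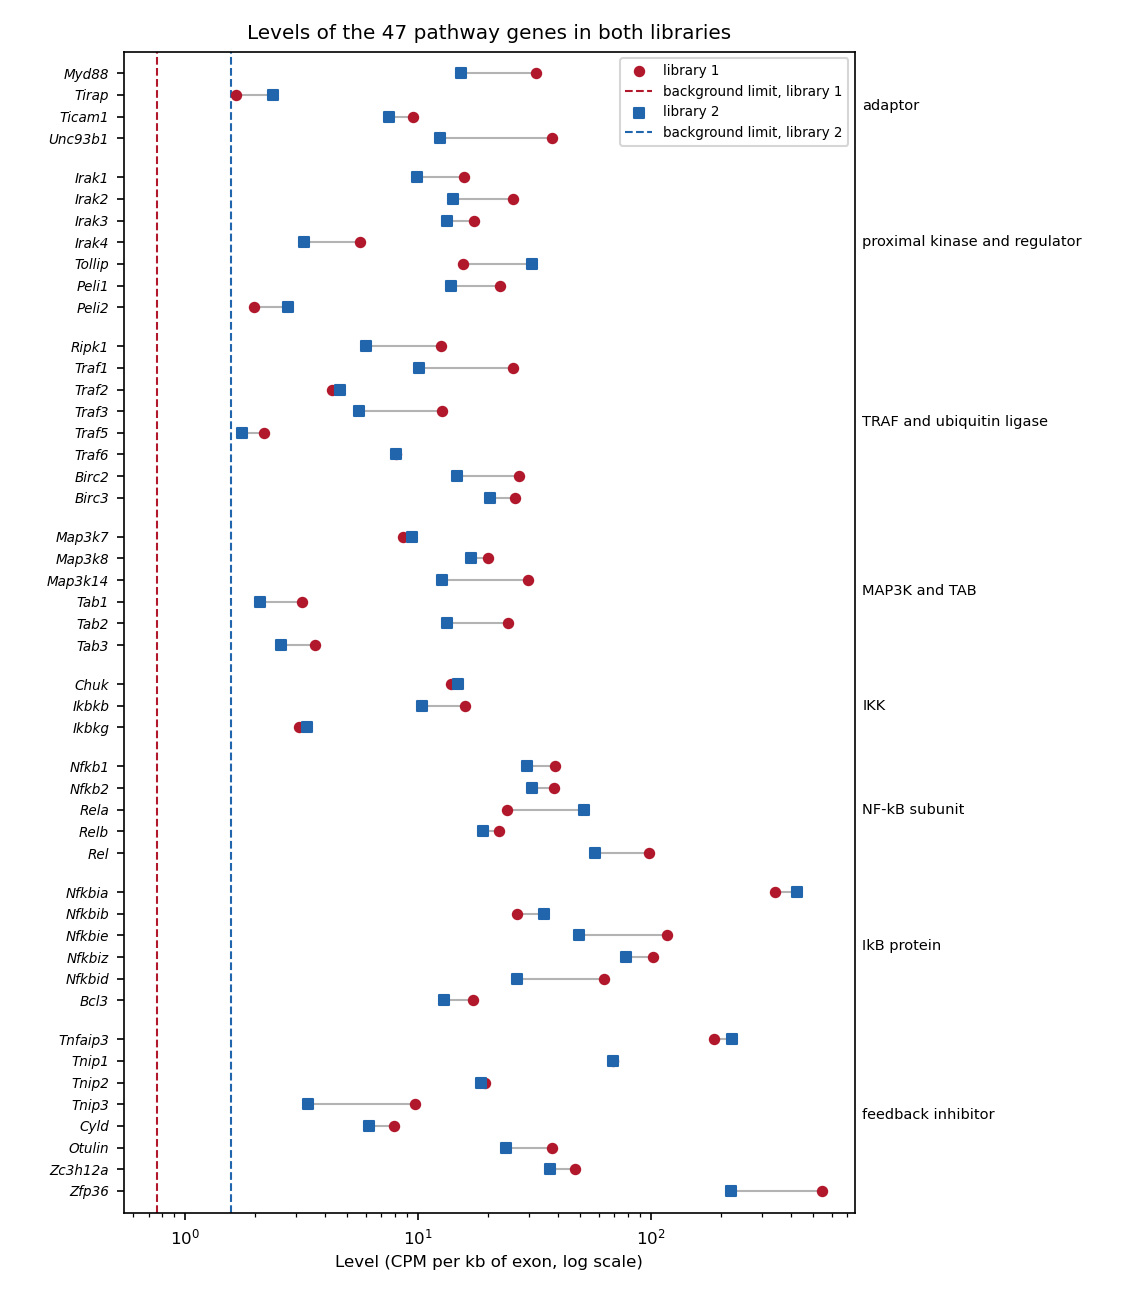
Level of each of the 47 pathway genes in CPM per kb of exon (log scale), with red circles for library 1 and blue squares for library 2, grouped by role. Dashed lines mark the background limits of 0.761 in library 1 and 1.58 in library 2. All genes lie above both, and Nfkbia, Zfp36 and Tnfaip3 lie farthest to the right.

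Members known to be induced by signals that activate NF-κB had a higher median level than the other members. The 20 inducible genes had a median of 38.6 CPM per kb in library 1 and 28.1 in library 2, against 12.7 and 9.51 for the 27 others. The medians of log2 levels differed by 1.60 in library 1 and 1.55 in library 2, or 3.02-fold and 2.93-fold, a mean difference of 1.57 ± 0.03 (SD, n = 2). This difference lies within each library and does not depend on how the libraries are scaled. The inducible genes held 78.8% of member counts in library 1 and 78.1% in library 2. Inducible members near the bottom of their class were Tnip3, at 9.70 and 3.40 CPM per kb, and Bcl3, at 17.3 and 12.9, while Rela, at 24.2 and 51.7, and Otulin, at 37.8 and 24.1, were high among the others. The classes follow what is known of these genes but were drawn up with earlier results of these data known, so the difference is a description. With no untreated cells, the data do not show which were induced here.

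Promoter sequence was set beside these levels, because NF-κB binds a short DNA element, the κB site. The inducible class was drawn up from genes known as NF-κB targets, so more matches were to be expected in it. Counts of matches by class are therefore a description. RefSeq promoter windows on GRCm38.p6, each from 250 bases before to 50 bases after an annotated start, were at hand for 40 members. The κB consensus motif was searched on both strands. It was found in 9 of 16 inducible members and 4 of 24 others, against 9.55% of all genes with a window. A stricter form of the motif was found in 2 of 16 inducible members (12.5%) and 2 of 24 others (8.33%), against 0.466% of all genes. With so few matches, the stricter form cannot show whether the classes differ, and the contrast between them rests on the looser consensus. Matches named below are to that consensus. The windows of the 5 highest inducible members with a match are shown, since they rank among the most abundant transcripts of the pathway. They read in the direction of transcription, with matches to the consensus in capitals:
Nfkbia: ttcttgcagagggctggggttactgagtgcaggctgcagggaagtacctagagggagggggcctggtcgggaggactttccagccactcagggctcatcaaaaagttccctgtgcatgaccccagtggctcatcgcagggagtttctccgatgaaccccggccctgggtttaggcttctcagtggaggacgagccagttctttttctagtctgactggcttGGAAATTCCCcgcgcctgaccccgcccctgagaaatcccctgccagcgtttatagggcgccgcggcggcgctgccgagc
Tnfaip3: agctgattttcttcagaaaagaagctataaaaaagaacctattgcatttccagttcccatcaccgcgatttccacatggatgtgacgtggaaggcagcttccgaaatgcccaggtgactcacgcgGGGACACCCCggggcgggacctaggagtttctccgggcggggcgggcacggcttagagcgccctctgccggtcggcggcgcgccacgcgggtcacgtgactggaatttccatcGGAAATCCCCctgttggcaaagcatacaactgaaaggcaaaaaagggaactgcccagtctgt
Nfkbie: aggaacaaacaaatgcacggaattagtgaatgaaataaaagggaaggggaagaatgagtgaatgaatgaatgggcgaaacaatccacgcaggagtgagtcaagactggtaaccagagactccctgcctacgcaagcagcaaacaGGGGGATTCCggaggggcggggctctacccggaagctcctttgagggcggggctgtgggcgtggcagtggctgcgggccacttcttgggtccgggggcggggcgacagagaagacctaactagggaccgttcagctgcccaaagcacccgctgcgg
Rel: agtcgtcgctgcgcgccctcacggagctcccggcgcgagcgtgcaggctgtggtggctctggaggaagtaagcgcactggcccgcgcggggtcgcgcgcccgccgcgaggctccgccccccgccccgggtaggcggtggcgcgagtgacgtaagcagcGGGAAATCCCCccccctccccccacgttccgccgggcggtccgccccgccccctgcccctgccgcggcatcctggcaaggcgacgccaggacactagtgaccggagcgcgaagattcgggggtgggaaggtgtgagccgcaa
Tnip1: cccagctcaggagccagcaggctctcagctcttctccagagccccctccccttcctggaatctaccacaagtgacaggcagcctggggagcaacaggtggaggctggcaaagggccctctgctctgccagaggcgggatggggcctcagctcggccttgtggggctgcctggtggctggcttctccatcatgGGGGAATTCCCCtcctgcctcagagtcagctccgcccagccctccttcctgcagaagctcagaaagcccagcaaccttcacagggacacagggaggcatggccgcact
The Nfkbia window is chr12:55492598-55492897 (minus strand) and its match, GGAAATTCCC, begins at -29 from the annotated start. The Tnfaip3 window is chr10:19015361-19015660 (minus strand), with matches at -125 and -12. The Nfkbie window is chr17:45555450-45555749 (plus strand), with GGGGGATTCC at -106. The Rel window is chr11:23770920-23771219 (minus strand), and its capitals hold overlapping matches, as do those of Tnip1 at chr11:54962891-54963190 (minus strand). Other inducible members with a match were Nfkb2, Nfkbid, Tnip3 and Bcl3, the last with GGGAAGTCCC at 2 bases after the start. The 13 members with a match had a median of 38.5 CPM per kb in library 1 and 26.7 in library 2. The 27 without had medians of 19.4 and 13.4. Of the 13, 9 were inducible genes, so this difference was not separate from that between the classes. The 4 others with a match, Irak1, Traf3, Map3k7 and Cyld, were at 15.9, 12.7, 8.67 and 7.91 CPM per kb in library 1. In library 2 they were at 9.95, 5.60, 9.51 and 6.18. The medians of their class were 12.7 and 9.51. Zfp36, among the most abundant members, had no match in its window, as did Birc3, Traf1 and Zc3h12a. A match is a string of letters, not a measured binding site.

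**Figure D2:**
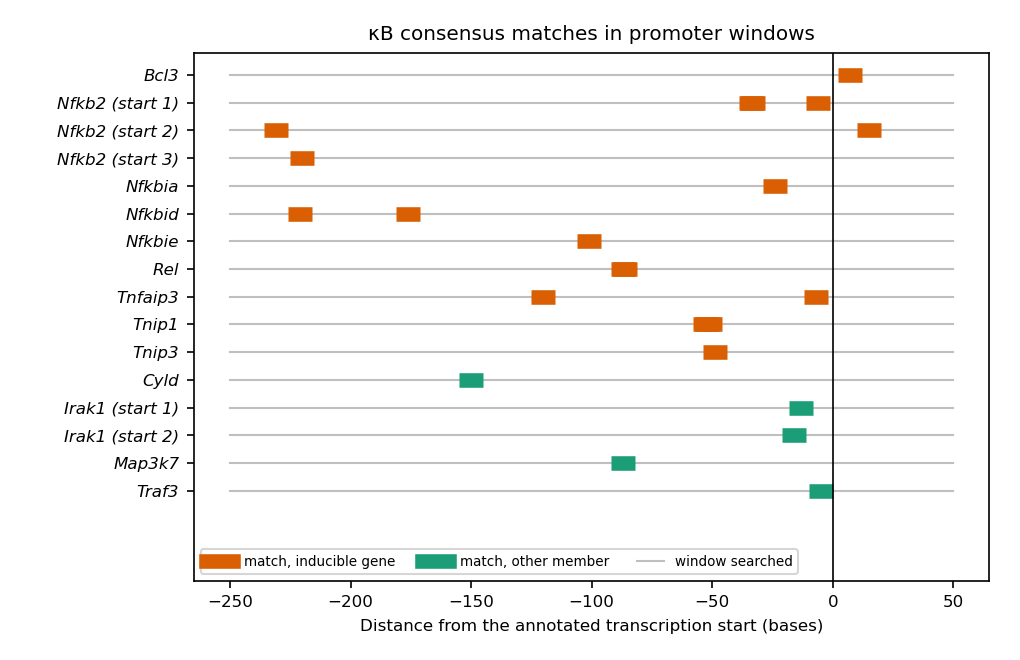
Positions of matches to the κB consensus motif in promoter windows of pathway genes, by distance in bases from the annotated transcription start (0). Orange blocks are matches in inducible genes and green blocks in other members; 9 inducible genes and 4 others have a match, and 3 annotated starts are drawn for Nfkb2 and 2 for Irak1.

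Among the adaptors, Myd88 and Unc93b1 were the most abundant per kb and were higher in library 1, while Tirap was among the lowest of all members. Myd88 (GRCm38 chromosome 9, 119335934 to 119341411, minus strand) was at 83.4 CPM in library 1 and 39.6 in library 2. Unc93b1, a chaperone that carries Toll-like receptors 7 and 9 to endosomes, was at 114 and 37.7 CPM. Both were higher in library 1, Myd88 by 2.99-fold (95% interval for counting error 2.83 to 3.16) and Unc93b1 by 4.30-fold (4.08 to 4.54) after TMM scaling, which corrects library totals for differences in composition. Unc93b1 had the largest ratio of all 47 members. Ticam1, the TRIF adaptor of Toll-like receptors 3 and 4, was at 28.7 and 22.6 CPM, and Tirap, which bridges MyD88 to receptors at the cell surface, at 8.17 and 11.8 CPM. Per kb, Myd88 exceeded Ticam1 3.38-fold in library 1 and 2.04-fold in library 2.

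Of the IRAK kinases, the inducible Irak2 and the inhibitory Irak3 stood above Irak4, the kinase that starts the cascade. Irak2 was at 113 CPM in library 1 and 62.7 in library 2, Irak1 at 74.9 and 46.9 CPM, and Irak3, which encodes the inactive kinase IRAK-M, at 64.4 and 49.2 CPM. Irak4 was at 28.4 and 16.4 CPM. Per kb, Irak3 exceeded Irak4 3.10-fold in library 1 and 4.10-fold in library 2, and Irak2 exceeded Irak1 1.61 and 1.43 times, so these orders were shared. Irak1, Irak2 and Irak4 were at least 2-fold higher in library 1 (2.27, 2.56 and 2.46 times with TMM). Peli1, a ubiquitin ligase that modifies IRAK1, was at 148 and 91.1 CPM, and its relative Peli2 at 17.99 and 25.4 CPM, a ratio per kb of 11.4 in library 1 and 4.98 in library 2. Peli1 was 2.31-fold higher in library 1 with TMM. Tollip, an adaptor that restrains IRAK1, went the other way, with 78.9 CPM in library 1 and 156 in library 2.

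The TRAF and cIAP genes were led per kb by Birc2 and Birc3 and by Traf1. Birc3, the inducible cIAP2 gene, was at 131 CPM in library 1 and 102 in library 2, and Birc2, the cIAP1 gene, at 125 and 67.3 CPM. Per kb their order turned: the ratio of Birc3 to Birc2 was 0.964 (95% interval 0.936 to 0.993) in library 1 and 1.39 (1.32 to 1.45) in library 2. Traf1, an inducible TRAF without ligase activity, was at 225 and 89.9 CPM and exceeded Traf2 5.93-fold per kb in library 1 and 2.20-fold in library 2. Traf3, which with TRAF2 and the cIAPs keeps NIK at low levels, was at 93.4 and 41.2 CPM, whereas Traf6, the ligase downstream of MyD88, was at 63.6 and 63.7 CPM. The ratio of Traf3 to Traf6 per kb was 1.58 (1.52 to 1.64) in library 1 and 0.693 (0.652 to 0.736) in library 2, so the more abundant of the pair differed. Ripk1, a scaffold kinase of TNF receptor and TRIF signalling, was at 105 and 50.04 CPM. With TMM, Traf1, Traf3, Ripk1 and Birc2 were 3.56, 3.22, 2.97 and 2.63 times higher in library 1, while Traf2 and Traf5 had ratios of 1.32 and 1.77.

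Among the kinases above IKK, Map3k14 led in library 1 and Map3k8 in library 2. Map3k14, which encodes NIK, the kinase of the CD40 branch, was at 195 CPM in library 1 and 83.6 in library 2. Map3k8, which encodes the kinase TPL2, was at 90.7 and 76.3 CPM, and Map3k7, which encodes TAK1, at 55.7 and 61.1 CPM. Their levels per kb were 29.8, 20.1 and 8.67 in library 1 and 12.8, 16.9 and 9.51 in library 2. Of the TAK1 partners, Tab2 was at 149.9 and 82.0 CPM, Tab3 at 24.0 and 17.1 CPM and Tab1 at 10.7 and 7.10 CPM. The ratio of Tab2 to Tab1 per kb was 7.65 in library 1 and 6.33 in library 2. Map3k14, Tab2 and Tab1 were 3.32, 2.60 and 2.15 times higher in library 1 with TMM.

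Of the IKK genes, Ikbkb was higher in library 1, and the sign of the difference in Chuk and Ikbkg depended on the scaling. Ikbkb, the catalytic subunit of the canonical pathway, was at 304 CPM in library 1 and 199 in library 2, a TMM ratio of 2.16. Chuk, which encodes IKKα, was at 70.6 and 76.2 CPM, and the scaffold gene Ikbkg (NEMO) at 25.2 and 27.2 CPM. The ratio of Ikbkb to Chuk per kb was 1.15 (1.11 to 1.18) in library 1 and 0.698 (0.670 to 0.727) in library 2. The annotated exons of Ikbkb add up to 19078 bp, the most of all members, so its level per kb may be understated.

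The libraries differed in the balance of the NF-κB subunits. Rel (chromosome 11, 23736847 to 23770970, minus strand), which encodes c-Rel, a subunit abundant in lymphoid and dendritic cells, was at 733 CPM in library 1 and 433 in library 2. Rela (chromosome 19, 5637483 to 5648130, plus strand), which encodes the widely expressed subunit RelA, was at 74.3 CPM in library 1 and 159 in library 2. Rel was thus higher and Rela lower in library 1, with TMM ratios of 2.40 and 0.665. The ratio of Rel to Rela per kb was 4.06 (3.94 to 4.18) in library 1 and 1.12 (1.09 to 1.15) in library 2, a 3.61-fold change of the ratio that no library scaling can move and the largest among the 18 pairs examined. Of the summed level per kb of the 5 subunits, Rel held 44.2% in library 1 and 30.7% in library 2, and Rela 10.9% and 27.3%. The shares of the other subunits differed less: Nfkb1, the precursor of p50, held 17.4% and 15.6%, Nfkb2, the precursor of p52, 17.3% and 16.3%, and Relb, the partner of p52, 10.1% and 10.1%. In counts, Nfkb1 was at 467 and 355.5 CPM, Nfkb2 at 176 and 142 CPM and Relb at 87.2 and 74.2 CPM. The pair Nfkb2 and Nfkb1 lay near equality per kb, at 0.994 (0.974 to 1.02) and 1.05 (1.02 to 1.08).

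Beside the shift between Rel and Rela, keratinocyte markers differed in the direction of Rela. Of the 14, none was at 0 counts in either library, 11 were at least 2-fold lower in library 1 with TMM, and the most abundant, Krt14, Dsp and Krt5, were at 1315, 985 and 904 CPM in library 1 and at 4806, 3141 and 3059 CPM in library 2. The part of keratinocyte transcripts in the levels of Rela and Tollip was not tested.

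Among the IκB genes, Nfkbia was the most abundant, and Nfkbie and Nfkbid differed most between the libraries. Nfkbia (chromosome 12, 55489410 to 55492647, minus strand), which encodes IκBα, the classical inhibitor that NF-κB induces, was at 551 CPM in library 1 and 685 in library 2. It made up 51.1% of the summed level per kb of the 6 IκB genes in library 1 and 67.7% in library 2. Nfkbib, which encodes IκBβ, was at 57.7 and 75.4 CPM, and the ratio of Nfkbia to Nfkbib per kb was 12.9 and 12.2, close in both libraries. Nfkbie, which encodes IκBε, was at 359.6 CPM in library 1 and 151 in library 2 and exceeded Nfkbib 4.44 and 1.43 times per kb. Among the nuclear IκB proteins, which act on transcription of target genes, Nfkbiz (IκBζ) was at 512 and 394 CPM, Nfkbid (IκBNS) at 148 and 62.7 CPM and Bcl3 at 42.7 and 32.0 CPM. Nfkbie and Nfkbid stood apart from the rest, 3.38-fold (3.29 to 3.48) and 3.35-fold (3.21 to 3.50) higher in library 1 with TMM, whereas Nfkbia and Nfkbib had ratios of 1.14 and 1.09.

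Of the feedback inhibitors, the sign of the difference in Tnfaip3 and Tnip1 depended on the scaling, while Zfp36, Tnip2, Tnip3, Cyld, Otulin and Zc3h12a were higher in library 1 under all 4 scalings. Tnfaip3 (chromosome 10, 19000910 to 19015657, minus strand) was at 1359 CPM in library 1 (counting interval 1351 to 1368) and at 1621 in library 2 (1609 to 1633), or 1490.3 ± 185 CPM (SD, n = 2). Tnip1, which encodes ABIN1, a ubiquitin-binding partner of A20, was at 243 and 245 CPM, and Tnip2 (ABIN2) at 52.1 and 50.3 CPM. Zfp36 (chromosome 7, 28376784 to 28380253, minus strand) was at 1885 CPM in library 1 and 768 in library 2, a TMM ratio of 3.48 (3.44 to 3.53). Tnip3 (ABIN3) was at 106 and 37.1 CPM, with a ratio of 4.05 (3.83 to 4.28), the second largest of the members. With TMM, Tnfaip3 and Tnip1 had ratios of 1.19 and 1.41. The deubiquitinase genes Cyld and Otulin were at 99.5 and 77.8 CPM and at 64.0 and 40.8 CPM, and Tnfaip3 exceeded Cyld 23.8-fold per kb in library 1 and 36.3-fold in library 2. Otulin was 2.23-fold higher in library 1 with TMM. Zc3h12a, which encodes the ribonuclease Regnase-1, was at 137 and 107 CPM.

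**Figure D3:**
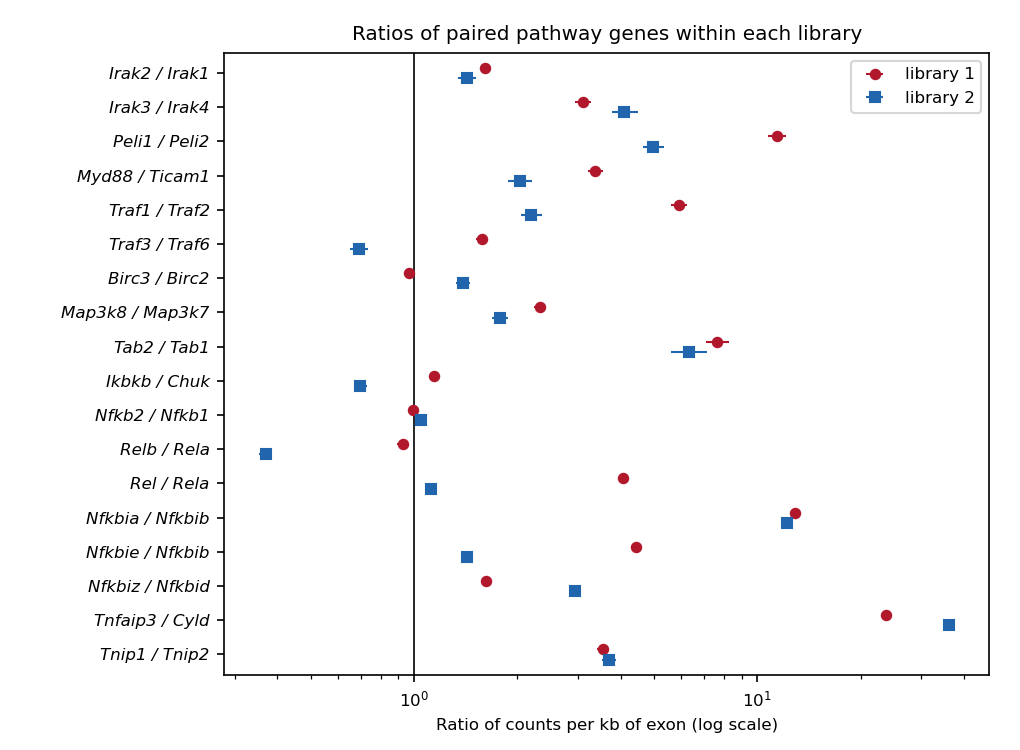
Ratios of counts per kb of exon for 18 pairs of related pathway genes, the gene named first over the other (log scale), with red circles for library 1 and blue squares for library 2. Bars are exact 95% intervals for counting error, and the line marks equality. Rel over Rela is 4.06 and 1.12, and Traf3 over Traf6 and Ikbkb over Chuk lie on opposite sides of the line.

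In 14 of the 18 pairs, the same gene was the more abundant per kb in both libraries. The gene named first led in 13 of them, and Rela led Relb in the remaining pair. In most pairs, but not all, the gene named first was inducible and the other was not. The pairs were chosen with earlier results of these data known, and Rela and Nfkbib recur among them, so these counts are a description. The other 4 pairs were Traf3 with Traf6, Birc3 with Birc2, Ikbkb with Chuk and Nfkb2 with Nfkb1. The ratio itself moved by over 1.5 times between the libraries in 10 of the 18 pairs, so the order was shared more often than the size.

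As a group, the members stood higher in library 1 than most genes. With TMM scaling, 20 of 47 members (42.6%) stood at 2-fold or more above library 2, and 0 at 2-fold or more below it. Of all 30373 genes with at least 1 CPM in a library, 12.7% stood that far above and 24.4% that far below. Of the 10385 protein-coding genes above background among them, 20.9% stood above and 4.93% below, and this is the closer background for genes that are all expressed. The median log2 ratio of library 1 over library 2 was 0.89 for the members, 0.43 for protein-coding genes above background and -0.14 for all genes tested, many of which lie within background. Scaled by total counts instead, 10 of 47 members were 2-fold or more above, against 5.48% of all genes tested, and 1 (Rela) as far below, against 38.6%. These shares were not taken for protein-coding genes above background. Their median log2 ratio by total counts was -0.07, against 0.39 for the members and -0.65 for all genes tested. With TMM, inducible and other members had medians of 0.90 and 0.86. By sign with TMM, 44 of 47 members were higher in library 1, as were 7503 of 10385 protein-coding genes above background. By CPM without TMM, 34 members were higher in library 1 and 13 in library 2. That share was not taken for other genes. Of these 13, 10 were not among the inducible genes, as were 27 of all 47 members. Under 4 scalings, 34 members were higher in library 1 in each, 2 (Rela and Tollip) were lower in each, and 11 changed sign with the scaling (Tirap, Peli2, Traf2, Traf6, Map3k7, Chuk, Ikbkg, Nfkbia, Nfkbib, Tnfaip3 and Tnip1). The 2-fold difference held under all 4 scalings for 10 members, the same 10 as by total counts. They were Myd88, Unc93b1, Ripk1, Traf1, Traf3, Map3k14, Nfkbie, Nfkbid, Tnip3 and Zfp36. A change of scaling shifts the log2 ratios of all genes by nearly the same amount, so the 4 scalings are not separate checks. Shares of all genes under all 4 scalings were not taken. These are differences between replicates of a single group, with no test of a condition behind them.

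**Figure D4:**
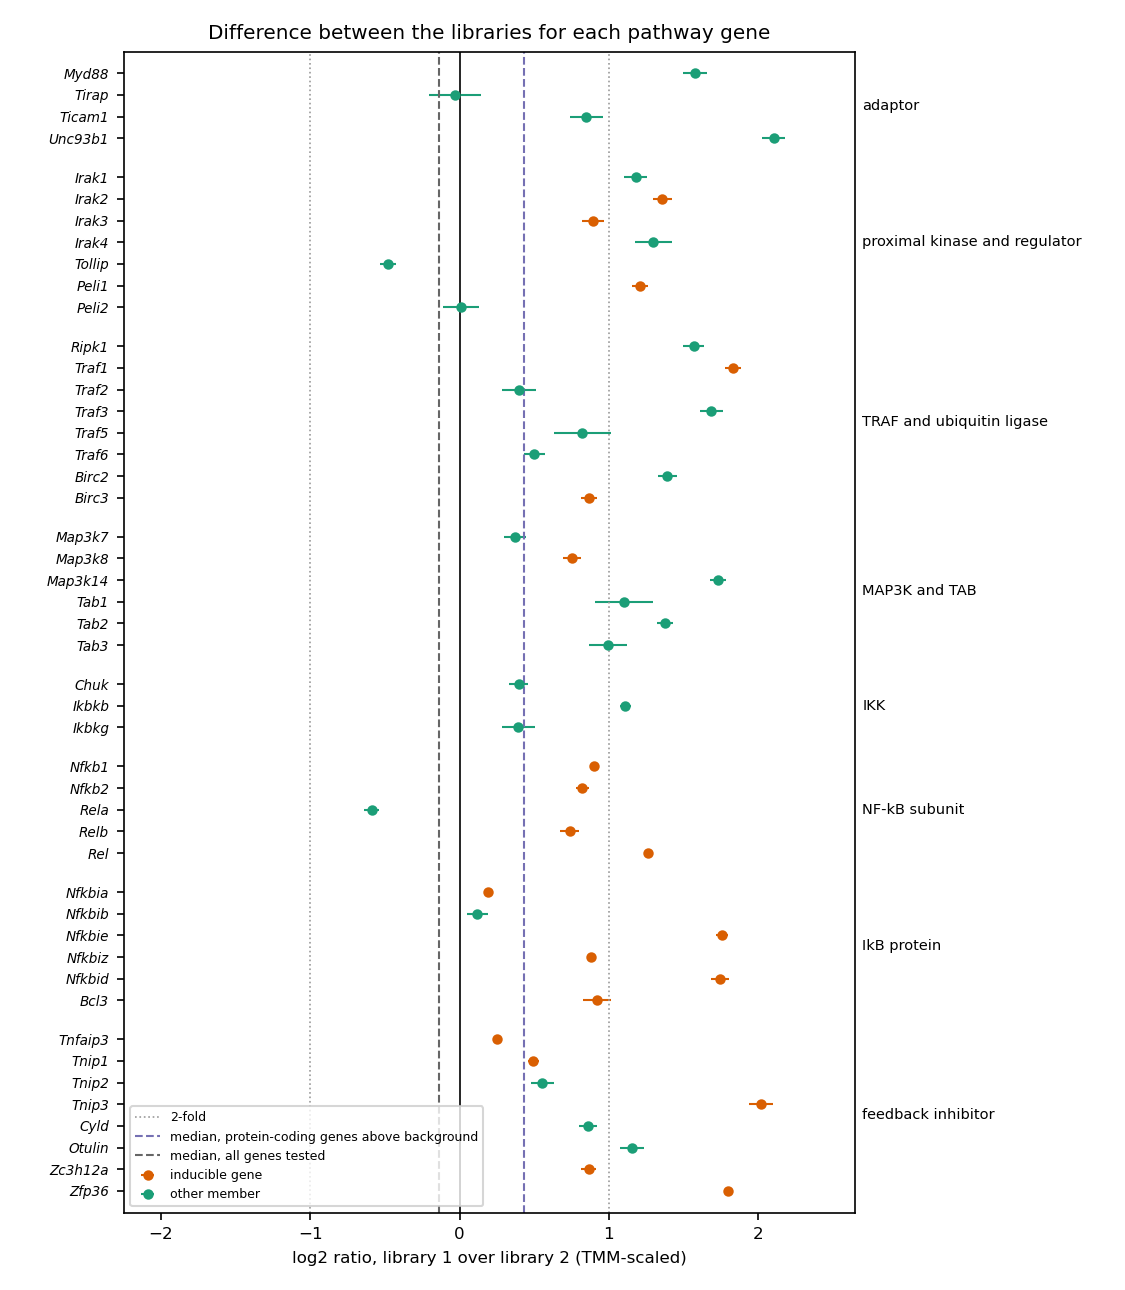
Log2 ratio of library 1 over library 2 (TMM-scaled) for each pathway gene, with bars for the exact 95% interval of counting error; orange points are inducible genes and green points other members. Dotted lines mark 2-fold, and dashed lines the medians of all genes tested (-0.14) and of protein-coding genes above background (0.43). The points of 20 members lie at or beyond 2-fold to the right, and Rela, Tollip and Tirap (-0.03) lie left of 0.

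Several marker lists were, like the members, higher in library 1 by their median. The mature dendritic cell list, which also holds Relb and Cd40, had a median of 1.83 on the log2 scale. Of its 12 genes, 9 were higher in library 1 by 2-fold or more and 1 was lower by as much. Its most abundant genes, Cd83, Ccl22 and Fscn1, were at 779.9, 828 and 536 CPM in library 1 and at 337, 92.6 and 74.0 CPM in library 2. The Langerhans cell list had a median of 1.30 and summed to 24264 and 13182 CPM, and the monocyte and macrophage list a median of 1.95 and sums of 2248 and 1071 CPM. The T cell list had a median of 1.46 and sums of 290 and 170 CPM. The neutrophil list had a median of -0.07 and sums of 317 and 624 CPM. S100a9 (182 and 425 CPM) and S100a8 (63.6 and 165 CPM) made up most of the neutrophil sums. Of the 7 neutrophil markers tested, 2 (Csf3r and Mpo) were at least 2-fold higher in library 1 with TMM, and 0 as far lower. Fibroblast markers summed to 120 and 63.6 CPM and endothelial markers to 88.0 and 52.2 CPM, with 0 of 8 and 1 of 8 above background in both libraries. No marker of these lists was at 0 counts in either library. The part of cell composition in the ratios of the pathway genes was not tested.

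**Figure D5:**
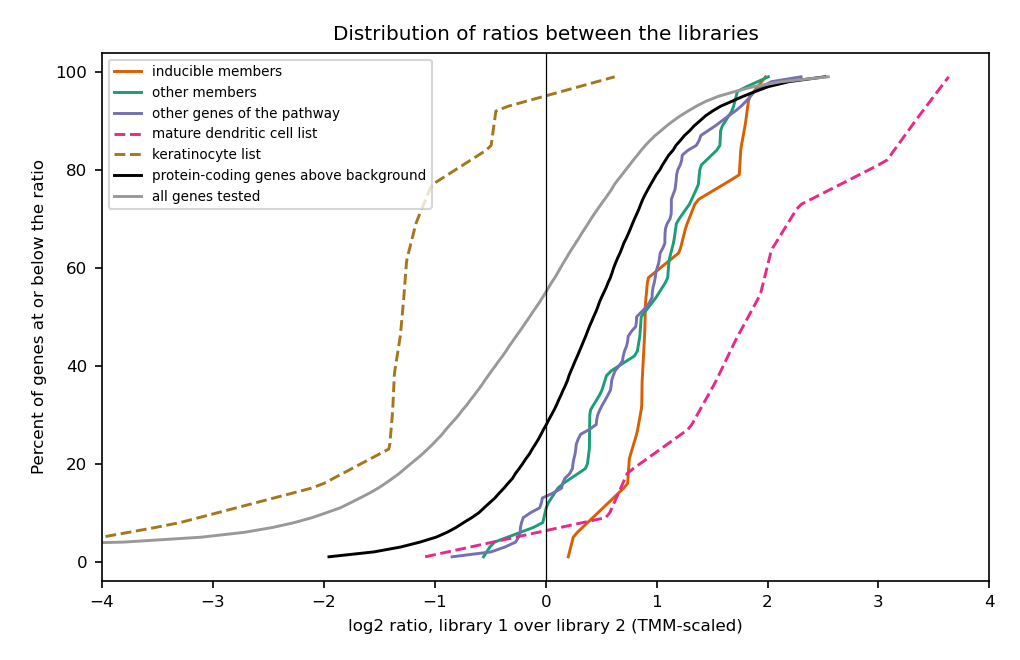
Cumulative distribution of the log2 ratio of library 1 over library 2 (TMM-scaled), as the percent of genes at or below each value. Curves of inducible members, other members and other genes of the pathway lie to the right of all genes tested (grey) and of protein-coding genes above background (black) over most of the range and meet them near the top; at the median, the mature dendritic cell list lies farther right (1.83) and the keratinocyte list to the left (-1.29).

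Further genes of the pathway were mostly expressed and mostly higher in library 1 with TMM. Of 55 further genes of the pathway, 51 were above background in both libraries, against 47.3% of protein-coding genes. With TMM, 22 of the 55 stood 2-fold or more above library 2 and 1 that far below. Of protein-coding genes above background, 20.9% stood that far above and 4.93% that far below. The median log2 ratio was 0.82 for the further genes and 0.43 for protein-coding genes above background. By sign alone, 47 of the 55 were higher in library 1, as were 7503 of 10385 protein-coding genes above background. The highest per kb were Dusp1, which encodes a phosphatase of MAP kinases (890 CPM in library 1 and 716 in library 2), Zfp36l1 (464 and 313 CPM) and Zfp36l2 (631 and 253 CPM), both relatives of Zfp36. Irf7, a transcription factor downstream of MyD88 in endosomal signalling, had the largest ratio, with 101 CPM in library 1 and 23.6 in library 2, and Irf5, its relative, was at 186 and 64.1 CPM. Of the receptors upstream, Cd40 was at 108 and 53.1 CPM, Tlr2 at 93.4 and 56.8 CPM and Tlr9 at 42.0 and 17.8 CPM. Per kb, Cd40 (31.6 and 15.6) and Tlr2 (31.0 and 18.8) lay above the medians of the members (22.4 and 13.9). Tlr9, at 12.1 and 5.12 CPM per kb, lay below them. Tlr7, the receptor of imiquimod, was at 14.0 CPM in library 1 and 6.39 in library 2. Per kb it was above background in library 1 and, at 1.565, just below the limit of 1.58 in library 2. Map2k6, a kinase of the p38 branch, was likewise above background in library 1 alone. With vomeronasal receptor genes as background, the limit of library 2 was 1.32 CPM per kb, and both genes lay above it. The inhibitory receptor gene Sigirr and Peli3 were within background in both libraries, and Peli3 was the gene that was at least 2-fold lower in library 1.

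Some members share exon bases with a neighbouring gene, and the counting is not stated to use strand. This holds for 15 of 47 members. Taken per neighbour, the overlap was largest for Nfkbib, of whose exon bases 14.5% lie in Ccer2 (135 and 137 counts). Nfkb2 followed, with 11.6% in an opposite-strand noncoding gene (1959 and 704 counts) and another 6.5% in Psd (759 and 455 counts), and Myd88, with 11.3% in Acaa1a (1502 and 872 counts). Reads in those stretches cannot be assigned to either gene with certainty.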

How the data were processed

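The authors deposited 1 table with raw counts for each Ensembl gene in each of 2 libraries, as whole numbers. According to the submitters' processing notes, Trimmomatic, HISAT2, SAMtools and StringTie were used with GRCm38. Per the labels' protocols, RNA input was 10 to 70 ng and the kit was stranded. Which annotation was counted, with what settings, whether strand was used and what a count stands for (read, pair or coverage) was not given in the sources used here. Intervals cover counting error only and may be too narrow. The column whose name ends in 2 is library 2, and the one with no number is called library 1. The final row has no gene and equals the column sums, and it was dropped.

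Symbols, positions and merged exon lengths came from GENCODE M21 on GRCm38, which matched 55227 of 55487 rows. CPM used library totals. Log2 ratios of library 1 over library 2 used TMM factors and a prior count of 1 (edgeR 4.0.16, R 4.3.3). They were taken over genes that reached 1 CPM in either library. The calculation was run on simulated counts in which few genes changed, evenly up and down. That setting is unlike these libraries, so it does not show which scaling fits them. With 1 group of 2 libraries no quasi-likelihood test was possible and no p-value is given. Intervals are exact Poisson, or exact binomial for ratios of counts (SciPy 1.17.1). Level medians of the classes used log2(CPM per kb + 0.1). Alternatives were DESeq2 1.42.0 size factors, total counts, upper quartile scaling, other count filters, background rules and centrings. Members are named throughout. Genes outside the list are named as the targeted gene, markers, the most abundant or most unequal genes of the pathway and those within background. Irf5, Cd40, Tlr2 and Tlr9 also passed the 2-fold rule. The members, gene lists, classes and pairs were chosen with earlier results of these data known.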

Additional observations from a re-analysis of the deposited data

How the results depend on the processing

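The count of members above background was 47 in either library by itself, with vomeronasal receptor genes as background and without exon length, and 45 at the 99th percentile; that of the other pathway genes ranged over 49 to 54. The count of members at least 2-fold higher in library 1, 20 with TMM, was 23 with DESeq2 size factors, 21 without a count filter, 20 with at least 10 counts in both libraries and 22 after background subtraction. It was 10 with total counts, 13 with upper quartile scaling, and, in centrings added after the data were seen, 10 when ratios were centred on protein-coding genes above background and 28 when centred on all genes tested. The share of all genes past 2-fold was taken only with TMM and with total counts. The count at least 2-fold lower, 0 with TMM, was 1 (Rela) with total counts and 1 when centred on protein-coding genes above background, and 0 otherwise. The median log2 ratio of the members was 0.89 with TMM, 1.00 with DESeq2 size factors, 0.39 with total counts, 0.55 with upper quartile scaling and 0.98 after background subtraction, and 0.46 and 1.04 under those centrings; it kept its sign throughout. The median of all genes moved with it, to -0.65 with total counts. The difference between inducible and other members, 1.57, was 1.5 with a pseudocount of 1 and 1.24 without exon length, and 1.55 to 1.60 with 1 library left out. The order of pairs was shared in 16 of 18 without exon length, where Birc3 led Birc2, Ikbkb led Chuk and Nfkb1 led Nfkb2 in both libraries, while the order of Relb and Rela turned (1.17 in library 1 and 0.467 in library 2). Of the 47 mean levels, 45 stayed within their SD under TMM scaling. With 2 libraries, the SD grows with the difference between them, so this count does not measure stability. Traf6 and Tnip1 moved beyond SDs of 0.133 and 1.19 CPM. Zfp36 moved from 1327 to 1446 CPM within an SD of 790 CPM. Ratios between libraries could not be had with a library left out. No paired analysis was possible because both libraries belong to 1 group. Traf5 lies just above and Tlr7 just below the background limit of library 2; the limits are 0.761 CPM per kb in library 1 and 1.58 in library 2.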
